A study of Mus musculus with 2 samples.

Results

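The enzymes that handle AICAR inside the cell, together with the purine synthesis enzymes around them, were followed through the reversion of primed mouse cells to the naive state. The set holds 10 genes, chosen by symbol for their place in the pathway: Ppat, Gart, Pfas, Paics, Adsl, Atic, Impdh2, Ampd2, Adk and Slc29a1. All 10 were found among the 33963 gene rows of the read table. The cells came from 5 tagged populations that were pooled in 1 single-cell cDNA library, with 1 sample per population.

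Purines are built stepwise on a ribose phosphate. Ppat starts the route, Gart and Pfas add ring atoms, and Paics and Adsl then form the ribotide AICAR, also called ZMP, which Atic formylates with a folate-bound carbon and closes to inosine monophosphate (IMP). Impdh2 commits IMP to guanine nucleotides, and Ampd2 returns AMP to IMP. AICAR added to a culture is a nucleoside: it enters cells through nucleoside transporters such as Slc29a1, is phosphorylated by adenosine kinase (Adk) to ZMP, and ZMP, which mimics AMP at the kinase AMPK, is consumed by Atic.

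The naive population was Rex1-GFP embryonic stem cells (mESCs), which carry a GFP gene under the Rex1 promoter. The primed population was the epiblast stem cell (mEpiSC) line Oct4GIP, in which an Oct4 promoter drives GFP with puromycin resistance, grown on fibronectin in FGF2 and Activin A. The strain on the labels is 129/Ola. For the d8 and d16 populations, primed cells were put on mouse embryonic fibroblast feeders. They were treated with AICAR and leukemia inhibitory factor (LIF) for 8 or 16 days. For this the medium was changed to one with serum and serum replacement, without FGF2 and Activin A. Medium, feeders and added reagents therefore differed together between primed and treated cells. The d16+10p population was grown on from d16 through 10 passages, without AICAR, in 2iL (kinase inhibitors plus LIF). The paper kept its naive cells in 2iL as well. Each population is 1 culture of 1 line, and no culture with LIF alone was analysed here. The naive and primed cells are of different lines, so cell state and line cannot be told apart between them. The treated cells of d8 and d16, and those of d16+10p, descend from Oct4GIP. The d8 and d16 cultures also held feeder cells, which were not separated from the treated cells here. In the primed sample, the paper takes cells without Oct4 to be feeders, so sums over all cells of a tag can include feeder reads.

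The table held 307121033 reads in 17720 cells: 801 naive, 1826 primed, 9627 d8, 4315 d16 and 1151 d16+10p, with median reads per cell of 10185 to 21551. No barcode was listed under more than 1 tag. Because d16 was a mixture, its cells were split at 1000 Dppa5a reads per 1000000 reads of the cell, a gene of naive cells, which gave 1278 Dppa5a-high cells (29.6%) and 3037 Dppa5a-low cells. The tags did not match cell states closely. Only 23.2% of the primed-tagged cells lay in the home cluster of the primed population. A home cluster is the cluster with high Pou5f1 (Oct4) in which the tag of a population was most enriched. Of the 1826 primed-tagged cells, 1350 lay outside every Pou5f1-high cluster. They included 428 in cluster 2 (led by Fgf15, Lefty1 and Lefty2), 160 in cluster 1 (led by Slc5a5, Sfn and Krt18) and 47 in cluster 8, which is macrophage-like. Most cells of these clusters were d8-tagged. Whether such primed-tagged cells were feeders or cells with a wrong tag was not tested. Accordingly, each level is given both for all cells of a tag and for its home-cluster cells, called the core: 423 primed core, 514 naive core, 1193 d16 core and 881 d16+10p core cells. Dppa5a was at 95.7 reads per 1000000 in the primed core and 2822 in the naive core. Pou5f1, at 406 and 372, was high in both through the choice of clusters and does not separate them. Of 7 primed markers, 4 (Pou3f1, Fgf8, T and Pim2) counted as 2-fold up in the primed home cluster, but not Fgf5, Otx2 or Eomes. Of 8 naive markers, 7 did so in the naive home cluster. None of the 10 genes was among the 2000 variable genes that defined the clusters.

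Levels are given as CPM, the summed reads of a gene per 1000000 reads of the group, with an exact Poisson 95% interval. All are levels of RNA, also where a gene is named by its enzyme, and protein and enzyme activity were not measured here. Ratios are log2 ratios of these levels with 1 CPM added, with a 95% interval from the exact binomial. Reads, not molecules, were counted. The intervals treat each read as independent, so they can be too narrow where reads copy the same molecule. With 1 sample per population there is no replicate check, so intervals cover counting error only and no test was made. A gene is called higher or lower when the ratio passed 1.5-fold. The background is the share of genes that did so among all those reaching 50 CPM in one of the groups compared.

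The clearest difference was in Adk, and therefore the sequences before its annotated starts are shown. RefSeq (GRCm38.p6) places 2 starts of Adk on the plus strand of chromosome 14, 23578 bases apart. The upstream start lies 65 bases from the end of Ap3m1, a divergently transcribed gene, and the stretch between them is shown whole. The downstream start lies within the Adk gene, and the 250 bases before it are shown. The last 100 bases before the start of Atic, the enzyme that consumes ZMP, are given for comparison, with a CACGTG in capitals, the E-box that Myc proteins can bind.
Adk, upstream start, chr14:21052509-21052573, plus strand: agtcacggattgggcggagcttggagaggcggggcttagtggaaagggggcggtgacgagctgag
Adk, downstream start, chr14:21075902-21076151, plus strand: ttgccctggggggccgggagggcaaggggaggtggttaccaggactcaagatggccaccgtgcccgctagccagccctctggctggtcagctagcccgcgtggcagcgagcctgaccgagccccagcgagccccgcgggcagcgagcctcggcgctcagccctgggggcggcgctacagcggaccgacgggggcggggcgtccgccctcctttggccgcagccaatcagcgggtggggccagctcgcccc
Atic, chr1:71557056-71557155, plus strand: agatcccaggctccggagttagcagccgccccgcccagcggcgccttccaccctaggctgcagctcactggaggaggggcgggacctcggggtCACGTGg
All 3 stretches are rich in G and C, at 64.6%, 75.2% and 72% in the order shown, but they differ in length. Over the 250 bases before each of these starts the values were 58.8%, 75.2% and 68.8%. The median over the 250 bases before all promoter starts was 52.4%. CACGTG, which reads the same on both strands, occurred in the 250 bases before a start of 4 of the 9 members with a RefSeq promoter entry (Atic, Impdh2, Paics and Slc29a1), or 4 of their 18 starts, against 6.02% of 32817 promoters. CACGTG was not in either Adk stretch. Several of the 18 starts are of Slc29a1, and promoters of like G and C content were not compared, so an excess was not tested. The NRF1 core GCATGCGC (2.25% of promoters) and the ATF4 element core TGATGCAA (0.792%), searched on both strands, were in none of the 18. Reads were counted per symbol, so the starts of Adk could not be separated.

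Adk, the kinase that turns the AICAR nucleoside into ZMP, was high in primed cells and low in every other population. Its level was 215 CPM (206 to 224) in the primed core, 36.0 (32.8 to 39.5) in the naive core, 36.4 (33.7 to 39.3) in the d16 core and 35.3 (32.8 to 37.8) in the d16+10p core. The 3 naive-type cores therefore did not differ from each other beyond counting error, while the primed core stood far above them. The log2 ratio was -2.54 (-2.72 to -2.43) for naive core over primed core and -2.53 (-2.69 to -2.44) for d16 core over primed core. Only 0.582% and 0.430% of all genes at the minimum level had a lower ratio in these comparisons.

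By tag alone, Adk was at 114 CPM (110 to 118) in primed, 34.2 (33.4 to 35.1) in d8, 34.6 (32.1 to 37.2) in d16 Dppa5a-high, 31.1 (29.3 to 33.0) in d16 Dppa5a-low, 36.7 (34.5 to 39.1) in d16+10p and 37.6 (34.8 to 40.6) in naive. Thus Adk was low in both kinds of AICAR-treated d16 cells and in cells that had left AICAR. The primed-tagged cells outside the Pou5f1-high clusters had 56.9 CPM (53.4 to 60.6), which is lower than in the primed core and higher than in d8. The share of cells with an Adk read was 86.8% in the primed core and 44.4% in the naive core. After thinning each cell to 5000 reads, which left out between 6 and 41 shallower cells per core, it was 55.7% (exact interval 50.8 to 60.5) in the primed core, 14.8% (11.8 to 18.2) in the naive core, 13.6% (11.7 to 15.7) in the d16 core and, in the d16+10p core, 15.3% (13.0 to 17.9). The difference was spread over the cells: the median primed core cell had 175 Adk CPM, whereas the median cell of each of the other 3 cores had 0. For scale, Alb, a liver gene that these cells should lack, lay between 0 and 0.171 CPM over the populations.

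**Figure D1:**
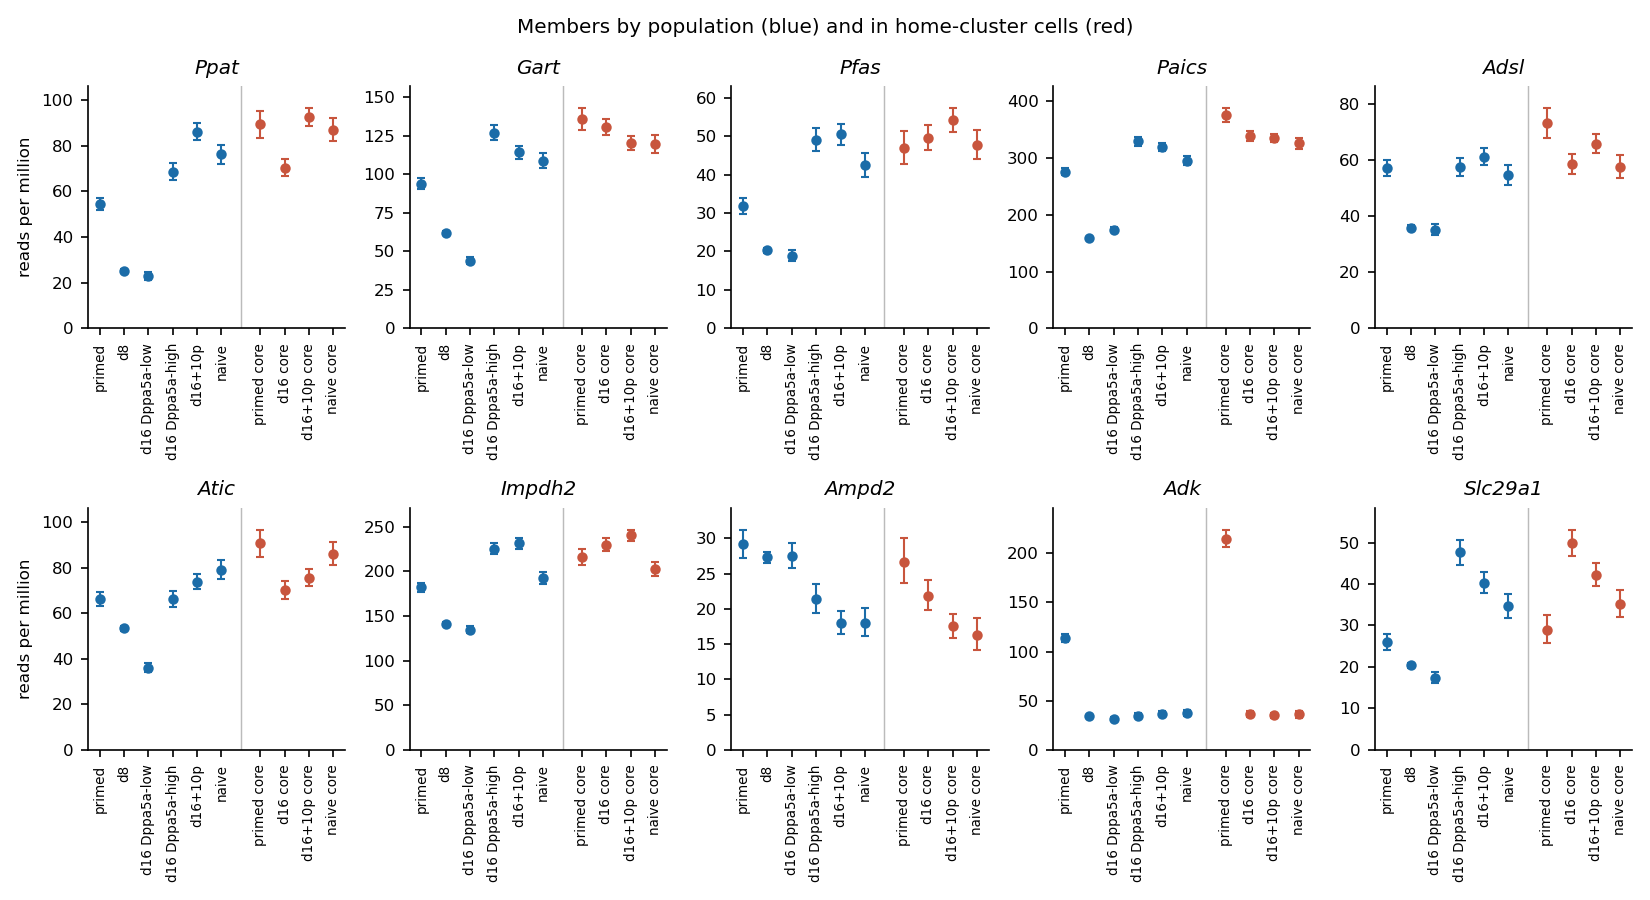
Level of each gene in CPM (linear axes from 0), by population in blue and in home-cluster (core) cells in red; bars are exact Poisson 95% intervals of the reads of 1 sample. Adk is high only in primed and primed core (114 and 215 CPM), while Ppat, Gart, Pfas, Paics and Slc29a1 are low in d8 and d16 Dppa5a-low and higher in the naive-type groups.

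Over the 15 clusters with at least 100 cells, Adk reached 213 CPM in cluster 12, the primed home cluster. The next was cluster 2, led by Fgf15, Lefty1 and Lefty2, with 57.7, so the step was 3.68-fold. The other 13 clusters lay between 21.5 in cluster 8, which is macrophage-like, and 45.5 in cluster 6, which is fibroblast-like. Within cluster 2 the level was 79.8 CPM (72.6 to 87.5) in 428 primed-tagged cells and 49.2 (46.1 to 52.4) in 1439 d8-tagged cells. Cluster 12 also held 8 d8-tagged cells, with 136 CPM (86.9 to 202). The gene whose cluster pattern was most like that of Adk was Pclaf, with r = 0.81 over 15 clusters. The clusters share a library and differ in depth and in proliferation, and r is given as a description.

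Genes around Adk, which were looked at after its values were seen, did not share its pattern. Ap3m1, which starts beside the upstream Adk start, was at 50.8 CPM in the primed core and 38.4 in the naive core, a log2 ratio of -0.40 (-0.59 to -0.22). Kat6b, a histone acetyltransferase gene that lies next to Adk on the other side, went the opposite way, at 19.96 CPM in the primed core, 149 in the naive core, 137 in the d16 core and 109 in the d16+10p core, a log2 ratio of 2.84 (2.69 to 3.12) for naive core over primed core. In d8 Kat6b was at 23.1 CPM, near its level in the primed core, whereas Adk in d8 was near its level in the naive core. Without Kat6b, 21 genes within 1000000 bases of Adk, Ap3m1 included, had at least 10 CPM in a group compared. Their log2 ratios of naive core over primed core lay between -0.83 for Zfp503 and 1.15 for Kcnk5.

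**Figure D2:**
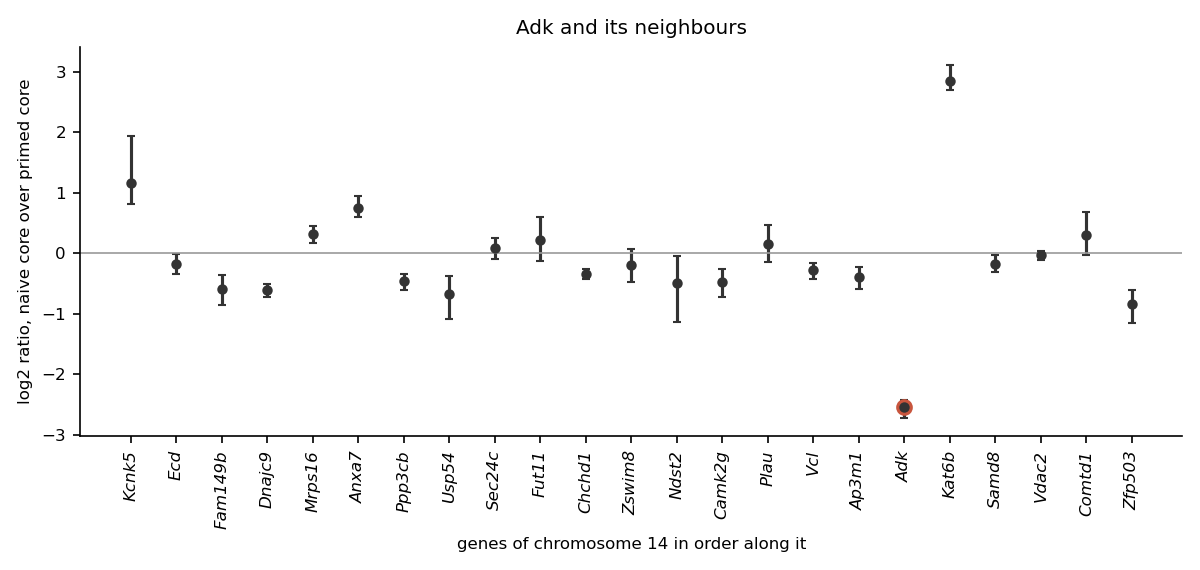
Log2 ratio of naive core over primed core for Adk (red) and the genes within 1000000 bases of it on chromosome 14 that had at least 10 CPM in primed core, naive core, d16 core, d16+10p core, d8 or Dppa5a-low cells, in their order along the chromosome; bars are 95% intervals of counting error. Adk (-2.54) and Kat6b (2.84) stand apart in opposite directions from the genes on both sides.

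The enzyme genes of the de novo route had another pattern, with higher RNA levels in all 4 cores than in d8. Ppat, the enzyme that commits the route, was at 54.5 CPM (51.8 to 57.3) in primed, 25.1 (24.4 to 25.9) in d8, 22.9 (21.3 to 24.5) in d16 Dppa5a-low, 68.7 (65.2 to 72.4) in d16 Dppa5a-high, 86.2 (82.7 to 89.8) in d16+10p and 76.2 (72.1 to 80.4) in naive. The 2 low groups were well below the rest. Gart, which carries out 3 steps of the route, was at 93.9 CPM in primed, 61.7 in d8, 44.0 in Dppa5a-low, 127 in Dppa5a-high, 114 in d16+10p and 109 in naive. Paics, which makes the step before Adsl, was at 276, 159, 173, 329, 320 and 295 CPM in the same order. Pfas was at 31.8, 20.3, 18.9, 49.0, 50.4 and 42.4 CPM, and Adsl, which also acts after IMP, at 57.2, 35.9, 35.2, 57.6, 61.3 and 54.6. For each of these 5 enzymes d8 and Dppa5a-low were therefore the lowest groups, and their intervals lay below those of the other 4.

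Atic, which uses up ZMP, was at 66.0 CPM (63.1 to 69.1) in primed, 53.4 (52.3 to 54.5) in d8, 36.1 (34.2 to 38.2) in Dppa5a-low, 66.3 (62.9 to 69.9) in Dppa5a-high, 73.8 (70.6 to 77.2) in d16+10p and 79.0 (74.9 to 83.3) in naive. Its d8 level was closer to primed than was the case for Ppat. In the cores it was 90.6 CPM (84.9 to 96.7) in primed and 86.1 (81.1 to 91.3) in naive, whose intervals overlap, while d16 at 70.0 (66.3 to 73.9) and d16+10p at 75.5 (71.9 to 79.2) lay below both. Adk and Atic, the enzymes that make ZMP from AICAR and consume it, thus differed in pattern: the log2 ratio of naive core over primed core was -0.07 (-0.20 to 0.05) for Atic.

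Among the genes beside the route, Impdh2 was at 182 CPM in primed, 141 in d8, 135 in Dppa5a-low, 225 in Dppa5a-high, 231 in d16+10p and 193 in naive. Impdh2 shares 1545 aligned bases at 99.7% identity with the pseudogene Impdh2-ps, which had 75.8 CPM in the primed core and 74.3 in the naive core, so its level is uncertain. Ampd2 ran the other way, at 29.2 CPM (27.2 to 31.2) in primed, 27.3 (26.5 to 28.1) in d8, 27.5 (25.8 to 29.3) in Dppa5a-low, 21.4 (19.4 to 23.5) in Dppa5a-high, 18.0 (16.4 to 19.7) in d16+10p and 18.0 (16.1 to 20.1) in naive. The primed, d8 and Dppa5a-low levels could not be separated from one another, and the naive and d16+10p levels were the lowest, although the naive interval overlapped that of Dppa5a-high. Ampd1, the AMP deaminase of muscle, was under 1 CPM in every group.

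Slc29a1, the equilibrative nucleoside transporter, was at 26.0 CPM (24.2 to 28.0) in primed, 20.3 (19.69 to 21.02) in d8, 17.4 (16.1 to 18.8) in Dppa5a-low, 47.6 (44.7 to 50.7) in Dppa5a-high, 40.3 (37.9 to 42.8) in d16+10p and 34.6 (31.9 to 37.5) in naive. Of these, d16 Dppa5a-high was the highest, and its interval did not overlap that of any other population. In the cores the order was the same, with 28.9 CPM (25.7 to 32.4) in primed, 35.3 (32.1 to 38.7) in naive, 42.2 (39.6 to 45.0) in d16+10p and 49.8 (46.7 to 53.1) in d16. By cluster, Slc29a1 was at 50.3 CPM in cluster 5, the d16 home cluster, and 47.4 in cluster 9, which is led by Pga5, Cfc1 and Cer1 and is not Pou5f1-high, so a level near that of the d16 home cluster was also found outside the naive-type clusters.

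In d8 against primed, 6 of the 10 genes were lower by 1.5-fold (background 10.7%) and 0 were higher (background 11.1%). They were Adk, Ppat, Paics, Adsl, Pfas and Gart, of which Pfas was under 50 CPM in d8, primed and primed core. The log2 ratio was -1.71 (-1.80 to -1.67) for Adk and -1.09 (-1.20 to -1.03) for Ppat, whereas Gart at -0.60 and Pfas at -0.62 were only just past the limit of the call. Under edgeR's TMM scaling 3 genes were lower in place of 6. The 10 genes summed to 578 CPM in d8 and 931 in primed, a log2 ratio of -0.69 (-0.71 to -0.67), and the median over the 10 genes was -0.61, against -0.02 over all genes. Against the primed core, 8 of 10 were lower (background 22.9%), all but Ampd2 and Slc29a1, and 0 were higher (background 25.4%). Between Dppa5a-low and d8, 0 were higher (background 13.3%) and 0 lower (background 9.85%). In this mixed population, fewer cells of a type and less RNA per cell of that type cannot be told apart from the tag sums alone.

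Proliferation genes differed between the same groups. The 15 genes of the list (Mki67, Pcna, Mcm2 to Mcm7 and others) summed to 1013 CPM in d8, 1165 in Dppa5a-low, 2079 in primed, 2680 in naive, 2759 in d16+10p and 3209 in Dppa5a-high, and 15 of 15 were lower in d8 than in primed (background 10.7%). Over the 15 clusters, r between the 10 genes summed and the list was 0.93. Within cells above the median of the list, the log2 ratio of the 10 genes in d8 over primed was -0.54 (-0.57 to -0.52), and within cells at or below the median it was -0.13 (-0.18 to -0.08), so the difference was smaller in both sets of cells than in all cells. Adk itself differed with the list among primed-tagged cells. It was at 136 CPM in primed cells above the median of the list and 36.5 CPM in those at or below it, a log2 ratio of 1.87 (1.71 to 2.101). Leaving out the Pou5f1-high clusters, the same sets of primed-tagged cells had 69.1 and 35.6 CPM, a log2 ratio of 0.94 (0.74 to 1.18). In d8 over the primed core, where Adk had its lowest ratio at -2.62 (-2.72 to -2.58), 15 of 15 proliferation genes were lower as well (background 22.9%). In the naive core over the primed core 0 of the 15 were past 1.5-fold, and the list summed to 2977 CPM (2947 to 3007) and 2866 CPM (2833 to 2899). The part of proliferation in these results was not tested.

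**Figure D3:**
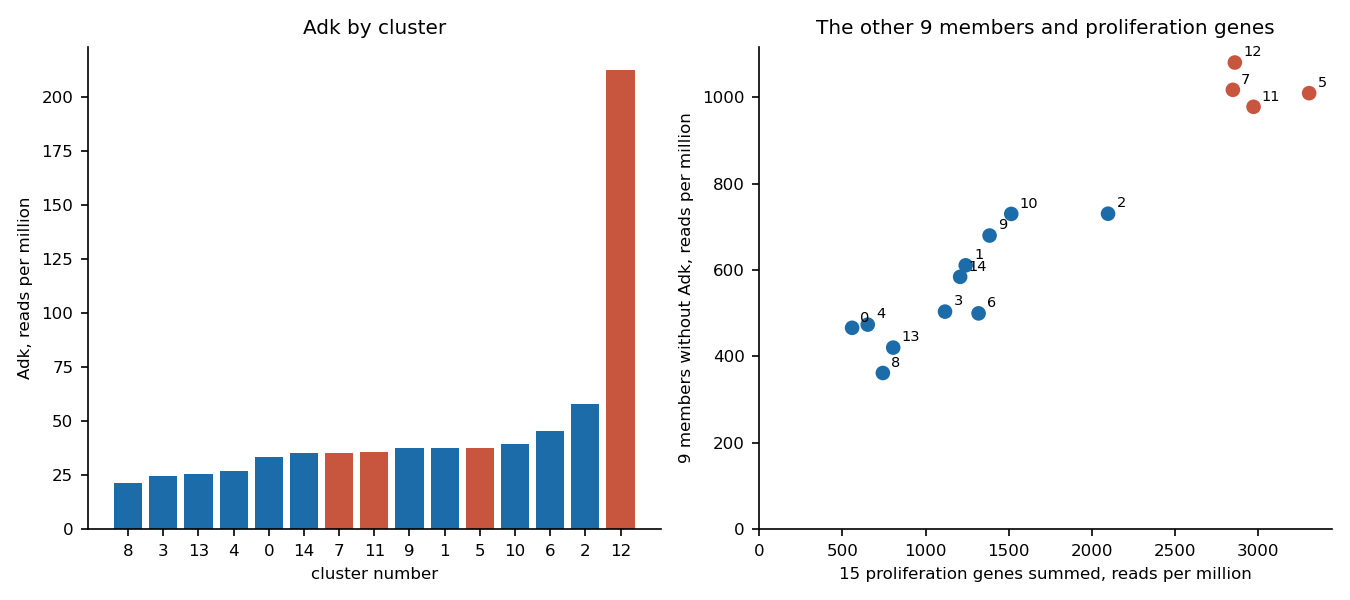
Left, Adk in CPM in each of the 15 clusters with at least 100 cells, in rising order; right, the other 9 genes summed against the 15 proliferation genes summed, both in CPM, with cluster numbers. Red marks Pou5f1-high clusters. Adk is at 213 CPM in cluster 12 and at most 57.7 in the others, whereas the other 9 genes are high in all 4 Pou5f1-high clusters.

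Within d16, Dppa5a-high cells had higher levels than Dppa5a-low cells for 8 of the 10 genes (background 25%), and 0 were lower (background 24.2%). Of the 8, Slc29a1 and Pfas were under 50 CPM in both groups. The largest log2 ratios were 1.55 (1.46 to 1.71) for Ppat, 1.51 (1.44 to 1.62) for Gart, 1.40 (1.30 to 1.60) for Slc29a1 and 1.33 (1.23 to 1.52) for Pfas. Adk, at 0.15 (0.01 to 0.29), and Ampd2, at -0.35 (-0.53 to -0.20), were the exceptions. The summed levels were 1027 and 541 CPM, a log2 ratio of 0.92 (0.90 to 0.95), and the median over the 10 genes was 0.89 against 0.07 over all genes. The median reads per cell were 14255 in Dppa5a-high and 8691 in Dppa5a-low cells. With cells thinned to 5000 reads the log2 ratio of the sum was 0.91, and within cells above the median of the proliferation list it was 0.74 (0.70 to 0.78). Within cells at or below that median, of which only 33 were Dppa5a-high, it was 0.57 (0.39 to 0.75), just under 1.5-fold.

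The sum of the 10 genes was higher in each successive range of Dppa5a, but not every gene was. The 10 genes summed to 521 CPM (509 to 534) in 1574 d16 cells without a Dppa5a read, 541 (531 to 552) in 1352 cells below 500 Dppa5a CPM, 734 (690 to 781) in 111 cells from 500 to under 1000, 853 (820 to 887) in 184 cells from 1000 to under 2000, and 1056 (1041 to 1071) in 1094 cells above. The cells just below and just above 1000 were thus both between the extremes. Ppat was at 44.4 CPM (33.9 to 57.0) just below and 45.7 (38.3 to 54.0) just above the limit, which does not separate them. Adk was at 49.4 (38.4 to 62.7) just below and 37.0 (30.4 to 44.5) just above, and 34.2 (31.5 to 37.0) in the highest range. Atic was at 67.6 CPM just below and 57.1 just above the limit, and Ampd2 was lower in the 3 upper ranges, at 19.6 to 21.5 CPM, than in the 2 lower ones, at 26.2 and 28.9 CPM.

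**Figure D4:**
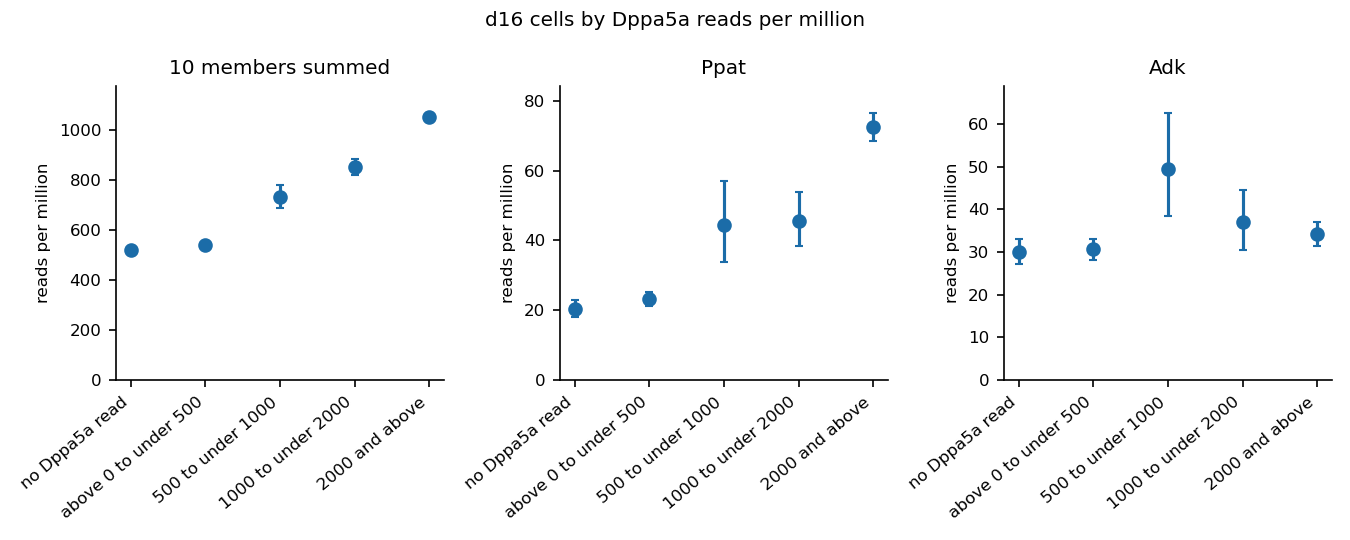
Level in d16 cells, in CPM, against the Dppa5a CPM of the cells in 5 ranges, for the 10 genes summed, Ppat and Adk; bars are exact Poisson 95% intervals. The sum runs from 521 to 1056 CPM over the ranges, and Adk is between 30.0 and 49.4 without such a trend.

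Against primed, d16 Dppa5a-high cells had 2 genes higher, Slc29a1 and Pfas (background 12.6%), and 1 lower, Adk (background 11.9%). Neither Slc29a1 nor Pfas reached 50 CPM in these groups, so both lie outside the genes of the background. The log2 ratio of Slc29a1 was 0.85 (0.73 to 1.01), and that of Pfas, 0.61 (0.49 to 0.76), was just past the limit and close to 0 between the cores, at 0.08 (-0.08 to 0.24). Between the d16 core and the primed core 1 gene was higher, Slc29a1 at 0.77 (0.59 to 0.98, background 15.9%), and 1 was lower, Adk (background 10.6%). Slc29a1 was under 50 CPM in both cores as well. The direction of the sum depended on the cells compared: all 10 genes together were at 0.14 (0.12 to 0.17) in Dppa5a-high over primed cells and at -0.30 (-0.33 to -0.27) in the d16 core over the primed core. Without Adk the latter was -0.09 (-0.12 to -0.05). The primed-tagged cells outside the Pou5f1-high clusters had a sum of 707 CPM and the primed core 1298.

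Naive against primed cells had 0 genes higher (background 8.54%) and 2 lower, Adk and Ampd2 (background 12.0%), and so did naive core against primed core (background 12.0% and 12.2%). For Ampd2 the log2 ratio was -0.66 (-0.89 to -0.50) by tag and -0.68 (-0.98 to -0.45) between the cores. The other 8 genes lay between -0.34 for Adsl and 0.28 for Slc29a1 between the cores, and the median of the 10 was -0.14 against -0.05 over all genes. In d16+10p against naive, 0 of 10 genes were higher (background 2.79%) and 0 lower (background 1.55%), and the same counts were found between their cores (background 3.56% and 2.90%) and in Dppa5a-high against naive (background 7.05% and 3.39%). In d16+10p over naive the log2 ratios lay between -0.10 for Atic and 0.26 for Impdh2, and that of Adk was -0.03 (-0.18 to 0.11). Between the cores they lay between -0.19 for Atic and 0.25 for Slc29a1. In Dppa5a-high over naive they lay between -0.25 for Atic and 0.45 for Slc29a1, with Adk at -0.12 (-0.28 to 0.03). Of the 10 genes, 6 or 7 reached 50 CPM in these comparisons, and the counts are over all 10.

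**Figure D5:**
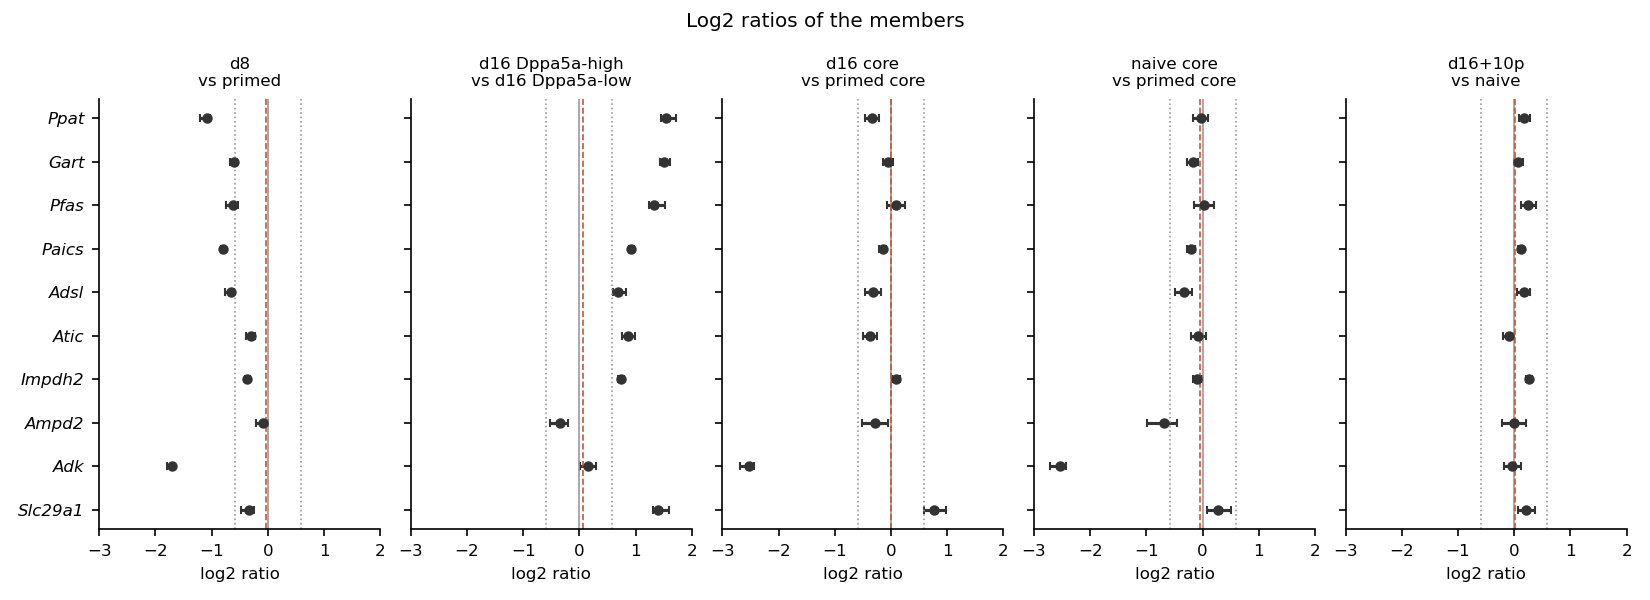
Log2 ratios of the 10 genes in 5 comparisons, with 95% intervals of counting error; dotted lines mark 1.5-fold, the grey line 0 and the dashed red line the median of all genes. Adk is lowest in 3 of the panels (-1.71, -2.53 and -2.54) and near 0 in d16+10p against naive, while Ppat, Gart, Pfas and Slc29a1 are highest in Dppa5a-high against Dppa5a-low.

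The rest of the pathway was read from lists of related genes, which also include the 10 genes themselves. Of the 8 genes of the de novo list, 6 reached 50 CPM: Prps1, and Ppat, Gart, Paics, Adsl and Atic, which are among the 10 genes. The counts and medians of this list therefore largely repeat values given above. In d8 against primed 5 of them were lower (background 10.7%), with a median log2 ratio of -0.73 against -0.02 over all genes, and in Dppa5a-high against Dppa5a-low 6 of 6 were higher (background 25%), with a median of 1.21 against 0.07. Prps1, an X-linked gene for the synthase that makes the ribose phosphate substrate of Ppat, was at 82.2 CPM in the primed core, 84.5 in the naive core and 151 in the d16 core. Its log2 ratio in the d16 core over the primed core was 0.87, while the median of X-linked genes there was -0.12. The other step from IMP, to AMP, had Adss at 83.5 CPM in the primed core, 118 in the naive core and 120 in the d16 core. Of 11 genes from IMP to AMP and GMP, 6 reached the minimum in d8 against primed, with Gmps and Adsl lower (background 10.7%) and Ak1, an adenylate kinase, higher (background 11.1%). Ak4, a mitochondrial adenylate kinase, was at 39.6 CPM in the primed core, 258 in the naive core, 144 in the d16 core and 58.7 in the d16+10p core.

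In the list of salvage and breakdown genes, Adk was the only one of 6 past 1.5-fold between the naive and primed cores (background 12.0% higher and 12.2% lower), and Adk and Pnp, the purine nucleoside phosphorylase gene, the only ones of 7 lower in the d16 core (background 10.6%). Hprt, which salvages hypoxanthine and guanine, was at 135 CPM in the primed core, 117 in the naive core and 196 in the d16 core. Of the 8 nucleoside and nucleobase transporters none reached 50 CPM. Slc28a1, a concentrative transporter, was at 0.894 CPM in the primed core against 15.3 in the naive core and 20.1 in the d16 core, although it had been listed as a gene expected near 0.

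Formyl-folate, which Gart and Atic use, is supplied by one-carbon enzymes, and in d8 against primed 4 of 4 such genes at the minimum level were lower (background 10.7%), with a median log2 ratio of -1.39 against -0.02 over all genes. Mthfd2, a mitochondrial enzyme of this supply, was at 173 CPM in the primed core, 177 in the naive core, 53.5 in the d16 core and 120 in the d16+10p core. Its log2 ratio was -1.67 (-1.81 to -1.58) in the d16 core over the primed core and 0.03 (-0.06 to 0.12) in the naive core over the primed core. Mthfd2, Shmt2 and Mthfd1l were the 3 of 6 that were lower in the d16 core than in the primed core (background 10.6%). For pyrimidine synthesis, 7 of 9 genes were higher in Dppa5a-high than Dppa5a-low cells, led by Dut, Rrm2 and Tyms, as were 14 of 15 proliferation genes (background 25%).

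The members that moved most alike over the 15 clusters were Ppat and Pfas (r = 0.97) and Ppat and Paics (r = 0.95). Ppat and Paics are neighbours on chromosome 5, transcribed away from each other, and their annotated genes overlap by 272 bases at their starts. Whether any reads came from the overlap was not examined. Ampd2 had an r between -0.49 and 0.18 with the other 9 genes. It was highest in cluster 14, led by Krt15 and Tbx4, at 92.5 CPM, against 35.7 in cluster 1, the next. Outside the set, the genes most like the sum were Lyar, Ncl, Mcm4, Mcm6 and Gm14681 (r from 0.96 to 0.97), those most like single members Mcm7 for Adsl and Wdr43 for Gart (both r = 0.98), Dkc1 for Ppat (0.98), U2af1 for Pfas (0.99), Dtymk for Paics (0.96), Psme3 for Atic (0.94), Nomo1 for Ampd2 (0.96) and Gmnn for Slc29a1 (0.78), and Impdh2-ps, with which reads may be shared, for Impdh2 (0.97).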

How the data were processed

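The deposited values are counts: the authors trimmed reads with cutadapt 2.10, mapped them with Bowtie2 2.3.4.1 to mouse transcripts (build mm10) and counted reads per gene symbol and cell, with no collapsing of molecular identifiers described. The authors assigned tags and removed tag doublets. No doublet caller was run here, and doublets within a tag remain. Of 17720 barcodes, all were used, and 15628 had more than 2000 and fewer than 8000 genes. Levels were computed here as CPM, the summed counts per 1000000 reads, with exact Poisson intervals, shares with exact Clopper-Pearson intervals, and ratios with a pseudocount of 1 CPM, at 95%. Clusters were rebuilt with Seurat 5.3.0 (2000 variable genes, 56 components, 50 neighbours, resolution 0.8). A cluster was called Pou5f1-high at 25% of the highest cluster's level and a read in 75% of its cells. The ratio calculation was run on simulated Poisson counts, which share the assumptions of the intervals and so cannot test them on real reads. Copies were sought with blastn 2.17.0. Positions are from GENCODE and promoters from RefSeq (GRCm38.p6). The genes and lists were chosen with earlier results of these data known. Named were the 10 genes, up to 3 list genes per direction past 1.5-fold, and the genes most alike over clusters. Kat6b and Ap3m1, and list genes outside that rule (Adss, Hprt, Slc28a1), were chosen after their values were seen.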

Additional observations from a re-analysis of the deposited data

How the results depend on the processing

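The values are log2 ratios of the 10 genes summed. Of 51 alternative values, 27 moved beyond the counting interval and 0 reversed a called direction. A reversal could be counted only where the main ratio passed 1.5-fold, in d8 over primed and Dppa5a-high over Dppa5a-low. For naive over primed and Dppa5a-high over primed, the sign did change in some settings, as given below. For naive over primed (0.01), TMM scaling gave 0.063, the mean of CPM per cell 0.12, thinning to 5000 reads 0.16, Pou5f1-high clusters -0.35, home clusters -0.36, cells above the median of the proliferation list -0.11 and leaving out Adk 0.14. For d8 over primed (-0.69) they gave -0.58 with TMM, -0.71 in cells with more than 2000 and fewer than 8000 genes, -0.50 per cell, -0.55 thinned, -1.16 against the primed home cluster, -0.54 above the proliferation median and -0.59 without Adk. For Dppa5a-high over primed (0.14) they gave 0.31 per cell, 0.24 thinned, 0.18 with a Dppa5a limit of 2000, -0.30 in Pou5f1-high clusters, -0.30 in home clusters, -0.014 above the proliferation median (0.42 in cells at or below it, of which 33 were Dppa5a-high) and 0.28 without Adk. For Dppa5a-high over Dppa5a-low (0.92) they gave 0.74 above the proliferation median and 0.96 without Adk. For d16+10p over naive (0.14) they gave 0.17 with TMM, 0.062 thinned, 0.10 in Pou5f1-high clusters and 0.089 in home clusters. The cause of these shifts was not tested.

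Adk in naive over primed lay between -2.54 and -1.15 over 9 alternatives. Of 171 alternative values of the 19 single-gene ratios past 1.5-fold, 171 had the same direction and 147 were still past 1.5-fold. Home clusters, the proliferation split, leaving out Adk, the genes around Adk and the ranges of Dppa5a were chosen after seeing the data. Pou5f1-high clusters were not run for d8, which had under 50 such cells. They were also not run against Dppa5a-low cells, a comparison left out of this setting whatever the number of cells. No paired analysis was possible because each population is 1 sample. Depth limits the thinned shares and the ranges of few cells.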
